A study of Mus musculus with 30 samples.

Results

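The 32 genes described here encode glucose transporters, the enzymes of glycolysis, the enzymes and carriers of lactate, 4 kinases that steer glycolytic and pyruvate flux, and genes of the cell's response to low oxygen. They were taken by gene symbol, and all 32 of 32 had a row among the 14685 genes of the table. All 32 were also above 1 FPKM (a fragment count corrected for transcript length and library size) in at least 1 sample, the filter that left 14525 genes to test. The measurements were bulk RNA-seq of 30 samples, which formed 15 groups of 2. The groups were 5 populations of a blood differentiation culture, each taken from wild type (WT) cells, cells homozygous for an Sp1 allele that lacks the DNA-binding domain (labelled Sp1_deltaDBD, here Sp1ΔDBD/ΔDBD) and cells without Sp3 (labelled Sp3KO, here Sp3-/-). All cells were mouse E14 embryonic stem cells (ESC) or their progeny.

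ESC were kept in serum and leukaemia inhibitory factor on embryonic fibroblast feeders and then grown without feeders for a pair of passages. Flk1+ cells, a mesoderm population with blood and vessel potential, were purified from embryoid bodies. They were then put into blast culture, from which 3 populations were sorted together, namely HE1 (KIT+ CD41- Tie2+, early haemogenic endothelium), HE2 (KIT+ CD41+ Tie2+, later haemogenic endothelium) and progenitors (KIT+ CD41+ Tie2-). The sources name 1 ESC line per genotype, so genotype and line cannot be told apart, and embryoid bodies were cultured for a time that was set for each line, so culture time and genotype cannot be told apart in Flk1+ cells and their progeny. The oxygen level of the cultures is not given in the sources used here. The methods call the 2 samples of a group biological replicates, and no more is said of how they were separated.

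Glycolysis splits glucose into pyruvate, yields ATP without oxygen, and sends pyruvate either to lactate or to the mitochondrion. Oxygen acts on it through the hypoxia-inducible factors (HIF), whose alpha subunits are hydroxylated by Egln enzymes and destroyed while oxygen is present, and which otherwise bind a short core sequence in target genes and raise glucose uptake, glycolysis and lactate export. Pluripotent cells and the early embryo are known for strong glycolysis. Sp1 and Sp3 are zinc finger proteins that bind GC boxes in a large share of promoters, including those of many genes of general metabolism.

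Promoters were read from RefSeq (GRCm38.p6, 250 bases before to 50 bases after each transcript start) for 30 of the 32 genes, which had 44 promoters. Slc2a3 and Epas1 had no entry. The letters GGGCGG of a GC box stood on either strand in 28 of the 44 promoters (63.6%), against 60.8% of 13965 promoters of the genes tested and 35.7% of all 32851 promoters. The hypoxia response core, ACGTG or GCGTG on either strand, stood in 35 of the 44 (79.5%), against 60.1% and 43.8%. The letters CACGTG were counted once on each strand. Windows of the same gene can overlap, as for Aldoa, Eno1 and Pfkm, so a match can be counted more than once. The list was chosen to hold genes of the response to low oxygen, so its share of cores is not an independent result. In 22 of the 30 genes, both motifs occurred. A match is a description of the letters, not evidence of binding. The 4 promoters below belong to genes whose levels the results turn on, namely 3 that were lower in mutant ESC or Flk1+ cells and 1, Bnip3, that was higher in later Sp1ΔDBD/ΔDBD cells, and capitals mark both motifs. For Aldoc, the first of its 2 promoters in the table is shown. The windows lie at chr11:78322823-78323122 (plus strand), chr11:120948817-120949116 (plus strand), chr6:124814109-124814408 (minus strand) and chr7:138909457-138909756 (minus strand), and each is written 5′ to 3′ along its gene.
Aldoc: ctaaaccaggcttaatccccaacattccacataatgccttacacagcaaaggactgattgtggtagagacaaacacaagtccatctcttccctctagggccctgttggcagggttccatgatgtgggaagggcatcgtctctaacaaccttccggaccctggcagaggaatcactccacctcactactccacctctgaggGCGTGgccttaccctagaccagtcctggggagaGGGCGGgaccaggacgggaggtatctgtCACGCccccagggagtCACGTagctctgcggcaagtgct
Slc16a3: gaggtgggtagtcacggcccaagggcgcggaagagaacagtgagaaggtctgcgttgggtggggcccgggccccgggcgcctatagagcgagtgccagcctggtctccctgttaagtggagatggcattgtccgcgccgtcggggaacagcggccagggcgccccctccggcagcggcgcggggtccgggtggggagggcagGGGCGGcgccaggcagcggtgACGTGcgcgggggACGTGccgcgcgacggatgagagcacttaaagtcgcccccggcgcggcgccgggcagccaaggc
Tpi1: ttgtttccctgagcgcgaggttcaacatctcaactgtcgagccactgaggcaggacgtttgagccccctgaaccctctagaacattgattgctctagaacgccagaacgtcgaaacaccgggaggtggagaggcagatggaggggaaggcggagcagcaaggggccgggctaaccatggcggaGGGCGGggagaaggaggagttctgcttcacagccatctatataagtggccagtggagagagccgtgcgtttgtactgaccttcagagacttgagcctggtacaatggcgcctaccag
Bnip3: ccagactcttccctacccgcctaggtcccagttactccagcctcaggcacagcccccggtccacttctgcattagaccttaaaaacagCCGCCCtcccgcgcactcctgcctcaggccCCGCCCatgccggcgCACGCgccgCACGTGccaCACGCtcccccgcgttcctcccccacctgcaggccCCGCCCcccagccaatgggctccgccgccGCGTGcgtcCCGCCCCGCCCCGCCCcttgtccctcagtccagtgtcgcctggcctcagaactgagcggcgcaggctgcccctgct
The Aldoc window holds 1 GC box and 3 hypoxia response cores, that of Slc16a3 holds 1 and 2, that of Tpi1 holds 1 and 0, and that of Bnip3 holds 6 and 5.

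The targeted genes were checked first. Sp3 transcript had a mean of 41.4 FPKM in WT ESC and 4.77 FPKM in Sp3-/- ESC, and its log2 fold change lay between -3.32 and -2.40 in the 5 populations. Sp1 transcript still reached 17.6 to 38.3 FPKM in the Sp1ΔDBD/ΔDBD groups, which does not check the label, since the removal of the domain leaves a transcript and a shortened protein. In WT samples, stem cell markers were highest in ESC, haemogenic endothelium markers in HE1 and progenitor markers in progenitors, while the mesoderm markers of Flk1+ cells stayed high in HE1. Some samples also held markers of other cells. The 5 smooth and cardiac muscle markers summed to 1696 and 356 FPKM in WT HE1 replicates 1 and 2, 995 and 248 in Sp1ΔDBD/ΔDBD HE1 and 195 and 123 in Sp3-/- HE1, and replicate 1 was also the higher one in WT and Sp1ΔDBD/ΔDBD HE2 and progenitors. None of the 5 was at 0 in these groups. The 5 feeder fibroblast markers, also none at 0, summed to 282 and 35.7 FPKM in WT HE1 replicates 1 and 2. They summed to 127 and 13.3 in Sp1ΔDBD/ΔDBD HE1 and to 27.7 and 19.0 in Sp3-/- HE1. The HE1 libraries called high in muscle markers below were thus high in both lists.

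Levels along differentiation are given first, in WT cells. The question is how the pathway is set in each population, and the answer differed by role. Pkm, the last enzyme of glycolysis, was at 1015 and 1111 FPKM in ESC, and Eno1, its neighbour in the pathway, at 834 and 870.0 FPKM. At the other end, Pfkfb4 was at 0.969 and 1.04 FPKM and Eno2, the enolase of neurons, at 1.56 and 0.791 FPKM. Of the 32 genes, 18 had their highest WT mean in Flk1+ cells, 8 in ESC, 4 in HE1 and 2 in progenitors, and 23 of the 32 peaked in the same population in all 3 genotypes. Peaks were not counted over all genes tested, so these counts do not set the 32 genes apart from the rest. Summed over the 32 genes, the level was 5711 and 5512 FPKM in the 2 WT ESC samples and 6681 and 6841 FPKM in Flk1+ cells. It was 3037 and 2510 FPKM in the HE1 samples, 2625 and 2639 FPKM in those of HE2, and 2594 and 2880 FPKM in progenitors. The sums of ESC and Flk1+ samples did not overlap those of the 3 later populations. In such bulk samples, fewer cells of a type and less RNA per cell cannot be told apart.

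**Figure D1:**
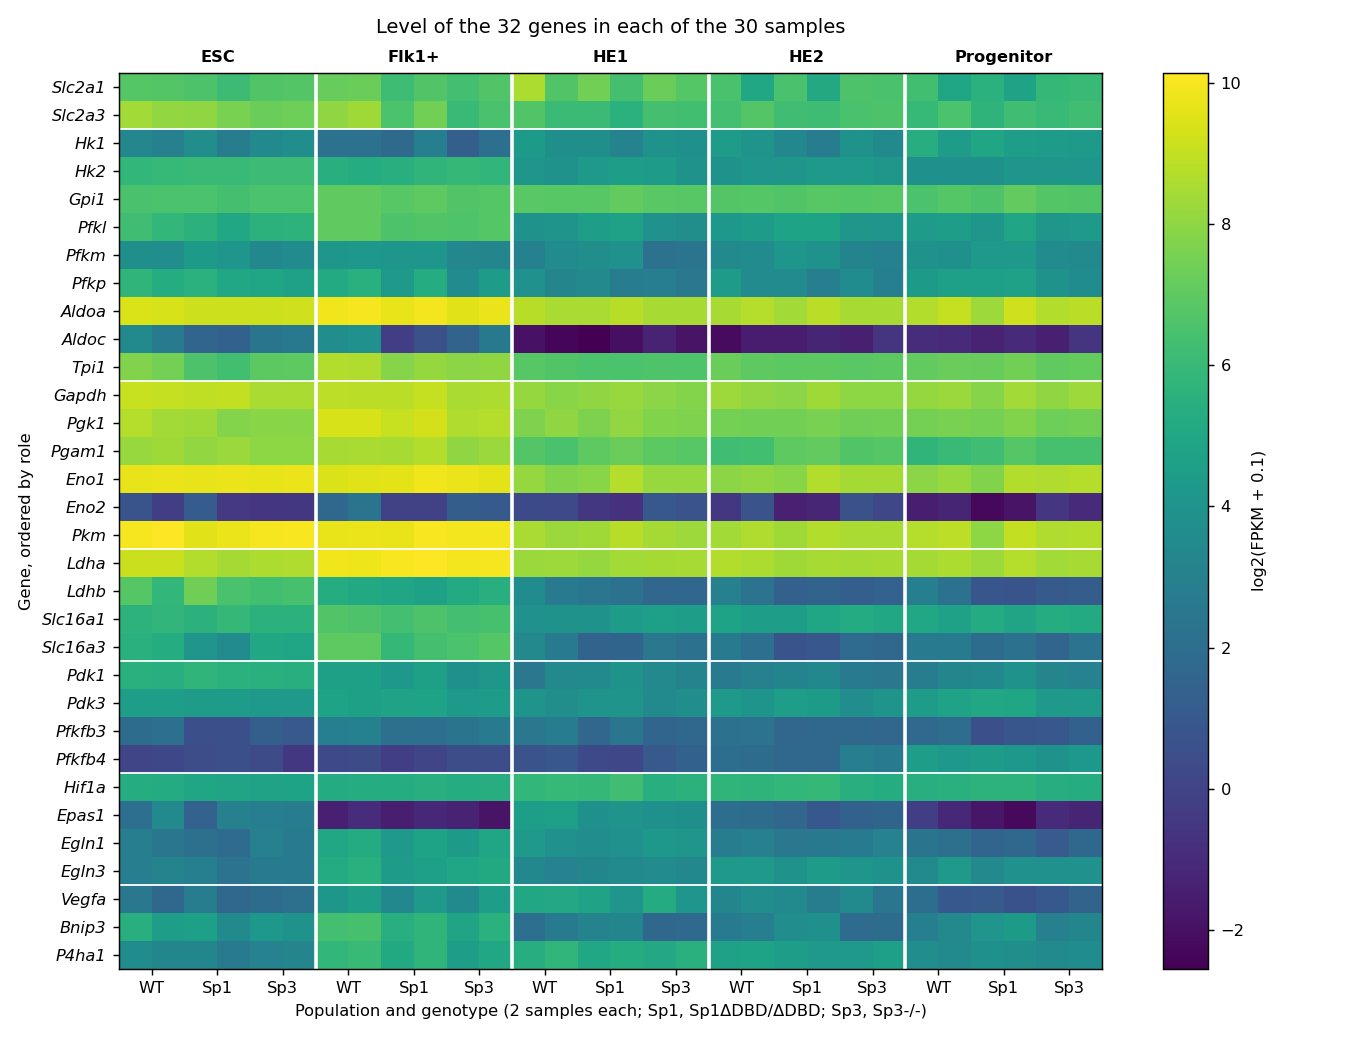
Level of each of the 32 genes (rows, ordered by role with white lines between roles) in each of the 30 samples (columns, 2 per genotype within each population), as log2(FPKM + 0.1). The left 2 blocks, ESC and Flk1+, are brighter than the right 3 for most enzymes, while Epas1 is darkest in Flk1+ cells and progenitors.

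From ESC to Flk1+ cells, 16 of the 32 genes rose and 5 fell in WT (limma on log2(FPKM + 0.1), adjusted p under 0.05 over all genes tested), where 27.4% of all genes tested rose and 24.7% fell. The median change was 0.49 on the log2 scale for the 32 genes and 0.03 for all genes. Where leaving out a sample or another setting ended a call, the adjusted p found there follows the main one in the parentheses. P4ha1, a collagen prolyl hydroxylase induced by HIF, went from 12.1 and 9.59 FPKM to 57.1 and 65.8 FPKM, a log2 change of 2.50 ± 0.22 (SE, limma adjusted p = 1.4e-08). Egln1, the main HIF prolyl hydroxylase, went from 7.19 and 5.26 FPKM to 31.6 and 37.9 FPKM, or 2.47 ± 0.24 (SE, limma adjusted p = 7.38e-08). Its relative Egln3, itself a HIF target, went from 7.36 and 8.79 FPKM to 37.7 and 44.6 FPKM, or 2.33 ± 0.24 (SE, limma adjusted p = 1.41e-07). These 3 rises were the largest, and in each the ESC and Flk1+ samples stood well apart. Epas1, which encodes HIF-2 alpha, moved the other way, from 4.21 and 11.3 FPKM to 0.273 and 0.427 FPKM, or -3.98 ± 0.45 (SE, limma adjusted p = 4.14e-07). Ldhb, the lactate dehydrogenase subunit of oxidative tissues, went from 112 and 57.1 FPKM to 39.6 and 35.1 FPKM, or -1.10 ± 0.33 (SE, limma adjusted p = 0.00912, 0.0598 to 0.188 without ESC WT replicate 1 or Flk1+ WT replicate 2, 0.0612 with the populations fitted alone). The fall of Hk1, a widely expressed hexokinase, from 10.1 and 7.82 FPKM to 4.61 and 4.65 FPKM, was -0.92 ± 0.38 (SE, limma adjusted p = 0.0486, 0.0711 to 0.216 on leaving out any 1 of the 4 samples, 0.0546 with a pseudocount of 1, 0.0608 without the intensity trend). In ESC, replicate 1 was the higher of the pair for Ldhb and Hk1 and the lower for Epas1.

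From Flk1+ cells to HE1, 23 genes fell and 3 rose, with 29.5% of all genes falling and 23.5% rising. The median change was -1.44 for the 32 genes and -0.08 for all genes tested. All 6 genes of lower glycolysis and all 4 of lactate handling fell, as did 7 of the 9 of upper glycolysis. Aldoc, the aldolase of brain, went from 12.6 and 14.5 FPKM to 0.159 and 0.0968 FPKM, or -5.91 ± 0.41 (SE, limma adjusted p = 1.32e-09). Bnip3, a mitophagy receptor and HIF target, went from 81.98 and 87.2 FPKM to 4.13 and 6.04 FPKM, or -4.06 ± 0.31 (SE, limma adjusted p = 3.66e-09). Slc16a3, the lactate exporter MCT4, went from 129 and 127 FPKM to 10.7 and 6.09 FPKM, or -3.97 ± 0.26 (SE, limma adjusted p = 5.37e-10). The 3 genes that rose were Hk1, of upper glycolysis, and Epas1 and Hif1a, of oxygen sensing. Epas1, also known from endothelial cells, reached 22.7 and 24.2 FPKM from its low level in Flk1+ cells, or 5.73 ± 0.45 (SE, limma adjusted p = 5.33e-09). Hk1 reached 20.3 and 13.8 FPKM, or 1.83 ± 0.38 (SE, limma adjusted p = 0.000477), while Hk2 fell. Hif1a, the other HIF alpha subunit, went from 37.7 and 39.2 FPKM to 57.7 and 61.01 FPKM, or 0.63 ± 0.09 (SE, limma adjusted p = 1.53e-05). Embryoid bodies and blast cultures differ in medium and form, so culture and population cannot be told apart at this step.

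Later steps involved fewer of these genes. From HE1 to HE2, 5 rose and 5 fell (11.7% and 10.2% of all genes tested), and the median was 0.02 for the 32 genes and 0.05 for all. Pfkfb4, which makes and breaks the signal molecule that activates phosphofructokinase, went from 1.55 and 1.77 FPKM to 4.02 and 3.73 FPKM, or 1.18 ± 0.24 (SE, limma adjusted p = 0.00156). Egln3 went from 10.5 and 8.43 FPKM to 18.95 and 19.8 FPKM, or 1.04 ± 0.24 (SE, limma adjusted p = 0.00466, 0.0508 without HE1 WT replicate 2). Slc16a1, the carrier MCT1 for lactate and pyruvate, went from 14.3 and 15.2 FPKM to 27.6 and 23.04 FPKM, or 0.77 ± 0.17 (SE, limma adjusted p = 0.00332). Among the falls, Epas1 went to 3.97 and 3.67 FPKM, or -2.59 ± 0.45 (SE, limma adjusted p = 0.000486). Slc2a1, the glucose transporter GLUT1, fell from 382 and 102 FPKM to 91.1 and 33.3 FPKM, or -1.84 ± 0.57 (SE, limma adjusted p = 0.0255, 0.27 to 0.381 without HE1 WT replicate 1 or HE2 WT replicate 2, 0.104 with the populations fitted alone, 0.355 without both HE1 libraries high in muscle markers). Its replicate 1 was about as far above replicate 2 as the populations were apart, and replicate 1 was also the sample with the higher muscle markers. Without both HE1 libraries high in these markers (WT and Sp1ΔDBD/ΔDBD replicate 1), an alternative chosen after the data were seen, the fall did not pass. Vegfa, the endothelial growth factor and a classical HIF target, went from 32.4 and 34.1 FPKM to 9.71 and 12.5 FPKM, or -1.59 ± 0.50 (SE, limma adjusted p = 0.0301, 0.0661 to 0.15 on leaving out any 1 of the 4 samples, 0.104 without both HE1 libraries high in muscle markers).

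From HE2 to progenitors, 2 rose and 4 fell (5.46% and 7.78% of all genes tested), and the median was 0.01 against 0.04. Pfkfb4 rose again, to 22.5 and 18.4 FPKM, or 2.36 ± 0.24 (SE, limma adjusted p = 1.7e-06), so that its progenitor samples stood far above those of every earlier WT population. Pdk3, a kinase that switches off pyruvate dehydrogenase, reached 21.9 and 26.6 FPKM from 18.9 and 16.3 FPKM, or 0.46 ± 0.13 (SE, limma adjusted p = 0.0218, 0.169 to 0.211 without HE2 WT replicate 2 or progenitor WT replicate 2, 0.109 with the populations fitted alone). Epas1 fell to 0.773 and 0.377 FPKM, or -2.60 ± 0.45 (SE, limma adjusted p = 0.000454). Vegfa fell to 3.94 and 1.81 FPKM, or -2.00 ± 0.50 (SE, limma adjusted p = 0.0106, 0.0738 to 0.135 without HE2 WT replicate 2 or progenitor WT replicate 2). Eno2 fell from 0.611 and 1.53 FPKM to 0.253 and 0.332 FPKM, or -1.46 ± 0.44 (SE, limma adjusted p = 0.0309, 0.068 to 0.313 without HE2 WT replicate 2, progenitor WT replicate 1 or progenitor WT replicate 2, 0.088 with a pseudocount of 1, 0.0949 with the populations fitted alone), at levels where the pseudocount matters. Over the same step, the sum of 5 primitive erythroid markers went from 972 and 481 to 13573 and 4484 FPKM, and its part in these changes was not tested.

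**Figure D2:**
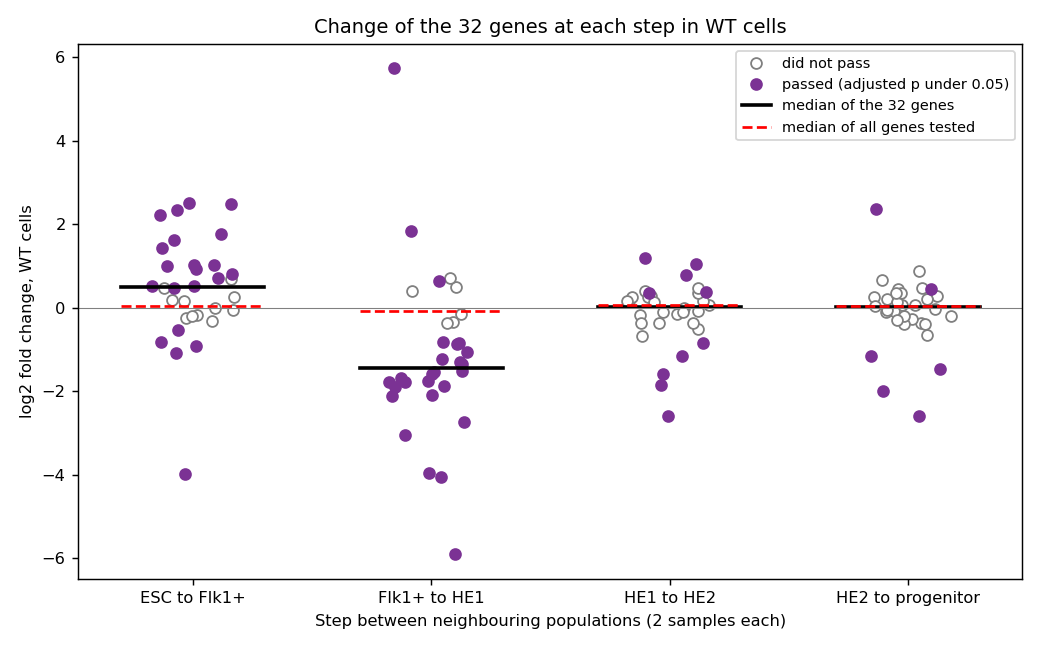
Log2 fold change in WT cells of each of the 32 genes (points, filled where limma's adjusted p is under 0.05) at the 4 steps between neighbouring populations, with the median of the 32 genes (solid line) and of all genes tested (dashed line). The solid line lies at 0.49 for the first step, at -1.44 for the step from Flk1+ to HE1, and near 0 for the last 2.

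Which relative of an enzyme supplied its transcripts also differed between populations, and is given as shares of summed FPKM with no test. Hk2, the hexokinase of growing and insulin-responsive tissue, made up 85.2% and 88.7% of Hk1 plus Hk2 in the WT ESC samples, 47.1% and 52.0% in HE1 and 25.8% and 39.9% in progenitors. Pfkl, the liver form of phosphofructokinase, made up 52.5% and 52.4% of its 3 forms in WT ESC and 71.1% and 67.4% in Flk1+ cells. Ldha, the subunit that favours lactate, made up 83.3% and 90.7% of Ldha plus Ldhb in ESC and 96.1% and 98.0% in HE1. The share of Epas1 among both HIF alpha subunits was 9.76% and 22.7% in ESC, 0.719% and 1.08% in Flk1+ cells, 28.3% and 28.4% in HE1, and 1.72% and 0.834% in progenitors.

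**Figure D3:**
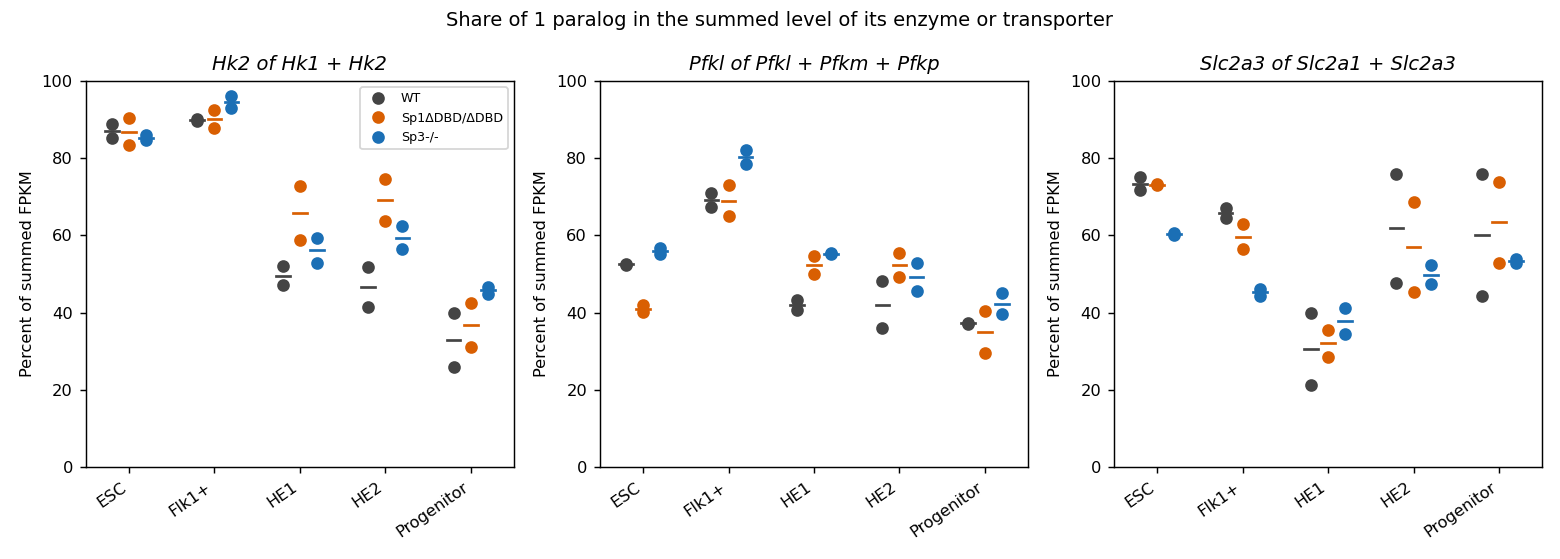
Share of Hk2, Pfkl and Slc2a3 in the summed FPKM of their relatives (vertical axes, percent) in each sample of the 5 populations, with points for samples, bars for group means and colours for genotypes. The share of Hk2 lies above 80% in every ESC and Flk1+ sample and below 50% in every progenitor sample.

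The comparison of each mutant with WT asks whether these genes depend on the Sp1 DNA-binding domain or on Sp3 in each population. Tpi1 fell in ESC and Flk1+ cells of both mutants, Slc2a3 fell in Flk1+ cells of both, and Aldoc fell in Flk1+ cells of both. Slc16a3 fell in Sp1ΔDBD/ΔDBD ESC, HE1 and HE2. Pfkm was higher than WT in Sp1ΔDBD/ΔDBD ESC, HE1 and HE2 and lower than WT in Sp3-/- Flk1+ cells and HE1. Ldhb was lower and Pgam1 higher in HE2 and progenitors of both mutants. In all, 22 of the 32 genes passed the test in at least 1 of the 10 comparisons, against 45.1% of all genes tested, and 10 passed in both mutants, against 13.4%. There were 42 calls of a lower and 14 of a higher level. The WT samples are common to the comparisons of both mutants, so the calls of one are not independent of those of the other.

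In Sp1ΔDBD/ΔDBD ESC, 7 of the 32 genes fell and 1 rose, against 3.26% and 2.8% of all genes tested. The median log2 change was -0.32 for the 32 genes and 0.00 for all genes tested. In Sp1ΔDBD/ΔDBD Flk1+ cells, 6 fell and 0 rose, against 2.62% and 2.92%, and the median was -0.29 against 0.02. By limma's unadjusted p under 0.05, 10 of the 32 differed there in either direction, against 18.7% of all genes tested. In HE1, 1 fell and 3 rose, against 4.35% and 5.69%, in HE2 2 fell and 3 rose, against 4.97% and 4.7%, and in progenitors 2 fell and 2 rose, against 5.04% and 3.75%. The medians of the 32 genes in these 3 populations were -0.01, -0.03 and -0.02.

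In Sp3-/- ESC, 7 genes fell and 0 rose, against 5.91% and 5.4% of all genes tested, and the median was -0.28 against -0.02. There, 9 of the 32 had an unadjusted limma p under 0.05 in either direction, against 25.1% of all genes tested. In Sp3-/- Flk1+ cells, 8 fell and 1 rose, against 5.94% and 6.69%, and the median was -0.38 against 0.00. In HE1, 4 fell and 1 rose, against 4.87% and 6.02%, in HE2 2 fell and 2 rose, against 6.84% and 6.97%, and in progenitors 3 fell and 1 rose, against 4.77% and 3.88%. The medians were -0.14, -0.21 and -0.11. The embryonic stem cell markers Pou5f1, Nanog, Sox2, Zfp42 and Esrrb summed to 41.3 and 31.9 FPKM in WT, 54.03 and 21.6 in Sp1ΔDBD/ΔDBD and 94.9 and 97.6 in Sp3-/- Flk1+ cells, against 1308 and 1331 in WT ESC, and none of the 5 was at 0. The 7 haemogenic endothelium markers summed to 15.5 and 19.8 FPKM in WT Flk1+ cells. In Sp1ΔDBD/ΔDBD Flk1+ cells they summed to 26.2 and 50.6, and in Sp3-/- to 20.9 and 20.8. The 5 mesoderm markers summed to 330 and 319 FPKM in WT, 322 and 387 in Sp1ΔDBD/ΔDBD and 445 and 512 in Sp3-/- Flk1+ cells. The part of these differences in the Flk1+ results was not tested.

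With 2 samples a group, an exact permutation test of a single gene cannot go below p = 0.333, and the calls rest on a spread that limma shares over all 30 samples. When each population was fitted alone, 8 of the 56 calls passed, namely in Sp1ΔDBD/ΔDBD cells Aldoc and Eno2 in Flk1+ cells and Pgam1 in HE2, and in Sp3-/- cells Hif1a in ESC and Pfkm, Pgk1, Slc2a3 and Tpi1 in Flk1+ cells. Of the 56 calls, 15 passed on leaving out any 1 sample of their comparison. In the parentheses below, losses with each population fitted alone are not repeated for the comparisons with WT. A value after ± is the standard error (SE) of a log2 fold change of FPKM + 0.1, which understates the change of low genes.

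**Figure D4:**
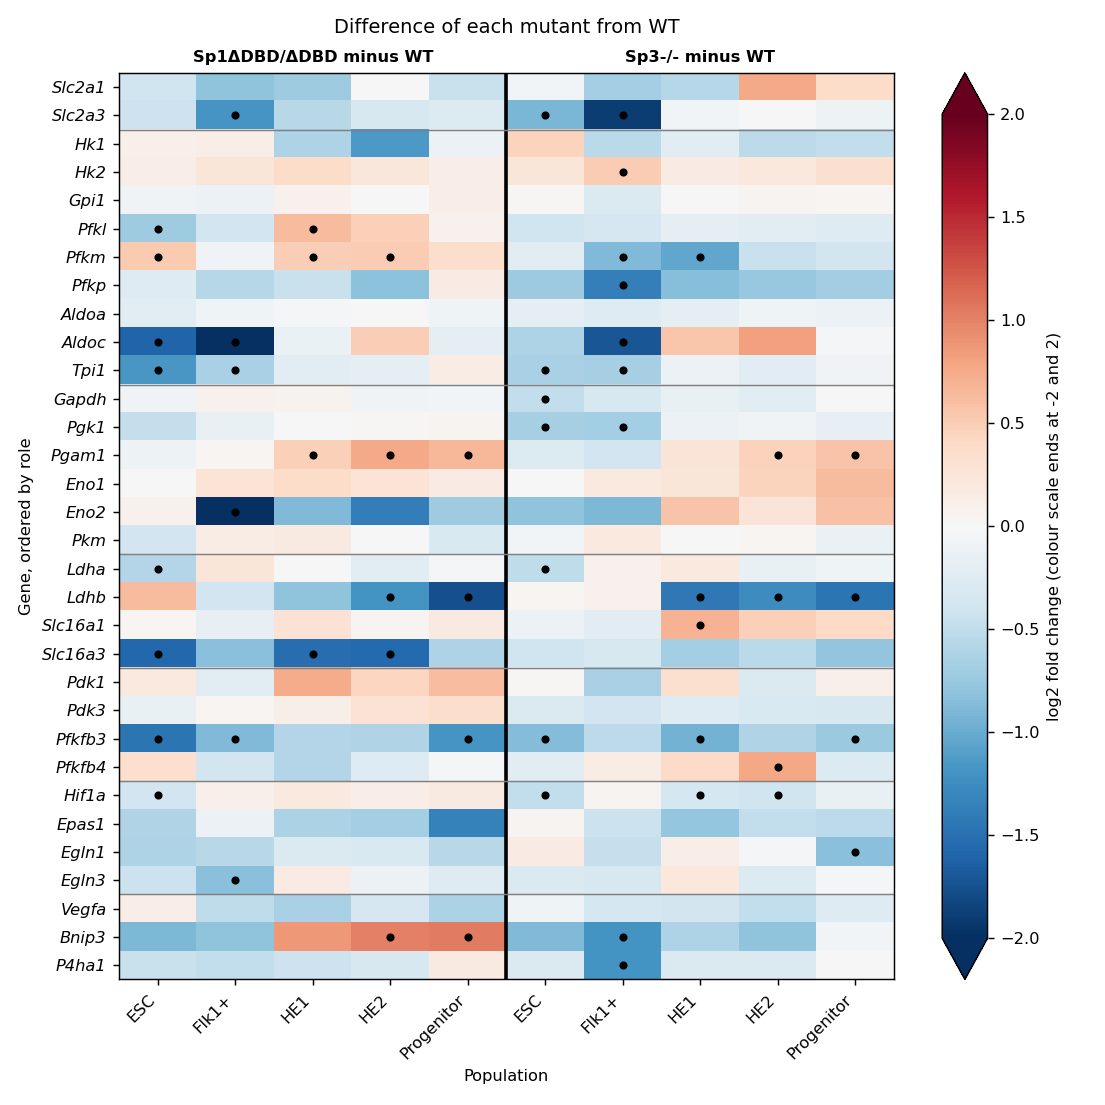
Log2 fold change of each of the 32 genes (rows, ordered by role) in each mutant against WT in 5 populations (columns), with black dots where limma's adjusted p over all genes tested is under 0.05. Of the 56 dots, 42 lie on blue fields, which mark lower levels in the mutant, and 30 of all dots lie in ESC and Flk1+ columns.

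Glucose enters through the transporters. Slc2a3 encodes GLUT3, a high-affinity transporter of embryonic cells and neurons. In ESC it was at 334 and 268 FPKM in WT, 258 and 193 in Sp1ΔDBD/ΔDBD and 158 and 160.4 in Sp3-/-. The Sp3-/- samples lay below both WT samples, and the change was -0.91 ± 0.28 (SE, limma adjusted p = 0.0438, 0.0759 to 0.248 on leaving out any 1 of the 4 samples, 0.0604 without the intensity trend, 0.0682 with the blast culture correlation, 0.161 after the GC and length correction). In Flk1+ cells it was at 259.6 and 319.9 FPKM in WT, 94.1 and 173 in Sp1ΔDBD/ΔDBD and 65.9 and 89.8 in Sp3-/-. Here all 4 mutant samples lay below the WT samples, and the change was -1.90 ± 0.28 (SE, limma adjusted p = 0.000473) in Sp3-/- and -1.18 ± 0.28 (SE, limma adjusted p = 0.0172, 0.0529 to 0.26 without WT replicate 1, WT replicate 2 or Sp1ΔDBD/ΔDBD replicate 1) in Sp1ΔDBD/ΔDBD cells. The other transporter, Slc2a1, passed in neither mutant. Of the summed FPKM of both transporters, Slc2a3 made up 64.4% and 67.2% in WT Flk1+ cells and 44.4% and 46.1% in Sp3-/- Flk1+ cells.

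In upper glycolysis, Tpi1 had the lowest p of the 32 genes in Sp1ΔDBD/ΔDBD ESC. It encodes triosephosphate isomerase, which interconverts the 2 products of aldolase. In ESC it was at 213 and 178 FPKM in WT, 97.6 and 78.3 in Sp1ΔDBD/ΔDBD and 122 and 128 in Sp3-/-. The 3 genotypes did not overlap, with Sp1ΔDBD/ΔDBD lowest, and the changes were -1.16 ± 0.12 (SE, limma adjusted p = 1.82e-05) in Sp1ΔDBD/ΔDBD and -0.64 ± 0.12 (SE, limma adjusted p = 0.00244) in Sp3-/- cells. In Flk1+ cells it was at 402 and 395 FPKM in WT, 231 and 277 in Sp1ΔDBD/ΔDBD and 240.2 and 262 in Sp3-/-. Again every mutant sample was below WT, with log2 changes of -0.65 ± 0.12 (SE, limma adjusted p = 0.00285, 0.0667 without Sp1ΔDBD/ΔDBD replicate 1) in Sp1ΔDBD/ΔDBD and -0.67 ± 0.12 (SE, limma adjusted p = 0.00194) in Sp3-/- cells. In progenitors, by contrast, it was at 138 and 151 FPKM in WT, 148 and 171 in Sp1ΔDBD/ΔDBD and 131 and 143 in Sp3-/-. Neither mutant passed there.

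Aldoc had the largest change from WT of the 32 genes. In ESC its level was 10.98 and 6.35 FPKM in WT, 2.91 and 2.5 in Sp1ΔDBD/ΔDBD and 5.07 and 5.81 in Sp3-/-. Only Sp1ΔDBD/ΔDBD passed there, with -1.59 ± 0.41 (SE, limma adjusted p = 0.026, 0.0836 to 0.209 without WT replicate 1, Sp1ΔDBD/ΔDBD replicate 1 or Sp1ΔDBD/ΔDBD replicate 2). In Flk1+ cells it was at 12.6 and 14.5 FPKM in WT, 0.769 and 1.42 in Sp1ΔDBD/ΔDBD and 2.76 and 5.98 in Sp3-/-, and the genotypes did not overlap. The change there was -3.57 ± 0.41 (SE, limma adjusted p = 2.6e-05) in Sp1ΔDBD/ΔDBD and -1.71 ± 0.41 (SE, limma adjusted p = 0.0109, 0.11 to 0.198 without WT replicate 2 or Sp3-/- replicate 1) in Sp3-/- cells. From HE1 on, every sample of every genotype was below 0.6 FPKM. Aldoc supplied little of the total aldolase, at most 1.58% of Aldoa plus Aldoc in any WT sample, and Aldoa passed in neither mutant. Aldoc and Slc16a3 lie on chromosome 11, whose 1206 genes tested had a median log2 change of -0.20 in Sp1ΔDBD/ΔDBD ESC, -0.12 in Sp1ΔDBD/ΔDBD Flk1+ cells, -0.29 in HE1 and -0.31 in HE2, while the medians of the other autosomes lay between -0.03 and 0.11 in these comparisons. In Sp3-/- Flk1+ cells the median of chromosome 11 was -0.12. The called changes of both genes were larger in size than these medians, and the part of chromosome 11 in them was not tested.

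Phosphofructokinase commits glucose to glycolysis, and its 3 forms differed in which mutant and population they passed. Pfkm, the muscle form, was at 13.5 and 12.5 FPKM in WT, 20.5 and 16.995 in Sp1ΔDBD/ΔDBD and 10.3 and 11.97 in Sp3-/- in ESC. For Flk1+ cells the values were 17.97 and 18.2 FPKM in WT, 17.4 and 17.02 in Sp1ΔDBD/ΔDBD and 9.99 and 9.49 in Sp3-/-. The HE1 samples held 8.04 and 11.998 FPKM in WT, 13.04 and 14.6 in Sp1ΔDBD/ΔDBD and 4.52 and 4.93 in Sp3-/-. Its Sp1ΔDBD/ΔDBD samples were the highest in ESC and HE1, and its Sp3-/- samples the lowest in all 3 populations. In HE2 Pfkm was at 11.3 and 11.97 FPKM in WT, 17.4 and 15.7 in Sp1ΔDBD/ΔDBD and 8.96 and 8.11 in Sp3-/-. In progenitors Pfkm was at 15.7 and 14.2 FPKM in WT, 19.04 and 19.2 in Sp1ΔDBD/ΔDBD and 11.8 and 11.3 in Sp3-/-. The 3 genotypes did not overlap in either, with WT between the mutants. The rise in Sp1ΔDBD/ΔDBD cells was 0.52 ± 0.15 (SE, limma adjusted p = 0.0443, 0.0945 to 0.305 without WT replicate 1, WT replicate 2 or Sp1ΔDBD/ΔDBD replicate 1, 0.051 without the intensity trend, 0.0634 with the blast culture correlation, 0.0541 after the GC and length correction) in ESC. It was 0.49 ± 0.15 (SE, limma adjusted p = 0.0434, 0.0563 to 0.535 without WT replicate 1, Sp1ΔDBD/ΔDBD replicate 1 or Sp1ΔDBD/ΔDBD replicate 2, 0.0511 without the intensity trend, 0.0605 with the blast culture correlation, 0.369 without both HE1 libraries high in muscle markers) in HE1 and 0.50 ± 0.15 (SE, limma adjusted p = 0.0387, 0.0848 to 0.171 on leaving out any 1 of the 4 samples, 0.0537 with the blast culture correlation) in HE2. None of these 3 rises was kept on leaving out each sample in turn, and the rise in HE1 was also lost without the 2 HE1 libraries high in muscle markers. The fall in Sp3-/- cells was -0.89 ± 0.15 (SE, limma adjusted p = 0.00108) in Flk1+ cells and -1.04 ± 0.15 (SE, limma adjusted p = 0.000285) in HE1, and both were kept without any 1 sample.

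Pfkl, the form that was most abundant in WT Flk1+ cells, was at 75.2 and 56.9 FPKM in WT, 48.4 and 32.6 in Sp1ΔDBD/ΔDBD and 48.9 and 50.4 in Sp3-/- in ESC. Its HE1 samples held 15.6 and 16.2 FPKM in WT, 23.8 and 25.8 in Sp1ΔDBD/ΔDBD and 14.6 and 13.04 in Sp3-/-. The Sp1ΔDBD/ΔDBD samples were the lower ones in ESC and the highest in HE1. The change was -0.72 ± 0.19 (SE, limma adjusted p = 0.0303, 0.248 to 0.282 without WT replicate 1 or Sp1ΔDBD/ΔDBD replicate 2) in Sp1ΔDBD/ΔDBD ESC and 0.64 ± 0.19 (SE, limma adjusted p = 0.0398, 0.0706 to 0.228 on leaving out any 1 of the 4 samples, 0.0571 without the intensity trend, 0.195 without both HE1 libraries high in muscle markers) in Sp1ΔDBD/ΔDBD HE1. The difference between these effects is taken up with the tests across populations. Pfkp, the platelet form, was at 36.3 and 45.1 FPKM in WT, 18.9 and 38.95 in Sp1ΔDBD/ΔDBD and 11.7 and 20.9 in Sp3-/- in Flk1+ cells. The Sp3-/- samples were below both WT samples, and the change was -1.37 ± 0.39 (SE, limma adjusted p = 0.026, 0.0688 to 0.293 without WT replicate 1, WT replicate 2 or Sp3-/- replicate 1, 0.058 after the GC and length correction). Hk2 was at 41.6 and 39.9 FPKM in WT, 43.3 and 53.8 in Sp1ΔDBD/ΔDBD and 59.9 and 56.3 in Sp3-/- in Flk1+ cells and was higher in Sp3-/- cells, with 0.51 ± 0.15 (SE, limma adjusted p = 0.03, 0.0878 to 0.196 on leaving out any 1 of the 4 samples). It was the 1 gene of the list that rose in Sp3-/- Flk1+ cells.

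In lower glycolysis, Pgk1, which makes the first ATP of the pathway, was at 428 and 327 FPKM in WT, 319.9 and 224 in Sp1ΔDBD/ΔDBD and 237 and 236 in Sp3-/- in ESC. The Flk1+ samples held 659 and 659 FPKM in WT, 542 and 648 in Sp1ΔDBD/ΔDBD and 398 and 425 in Sp3-/-. Its Sp3-/- samples lay below WT in both, with -0.66 ± 0.17 (SE, limma adjusted p = 0.0183, 0.104 to 0.206 without WT replicate 1, Sp3-/- replicate 1 or Sp3-/- replicate 2) in ESC and -0.68 ± 0.17 (SE, limma adjusted p = 0.0146, 0.054 to 0.123 on leaving out any 1 of the 4 samples) in Flk1+ cells. Pgk1 lies on the X chromosome, whose 514 genes tested had a median log2 change of -0.18 in Sp3-/- ESC and -0.12 in Sp3-/- Flk1+ cells. Its part in the Pgk1 result was not tested. Gapdh, the enzyme before Pgk1 in the pathway and a common reference gene, was at 531 and 512 FPKM in WT, 489 and 501 in Sp1ΔDBD/ΔDBD and 371 and 371 in Sp3-/- in ESC. The change in Sp3-/- was -0.49 ± 0.15 (SE, limma adjusted p = 0.0452, 0.117 to 0.184 on leaving out any 1 of the 4 samples, 0.0626 without the intensity trend). Eno2 was at 3.28 and 4.88 FPKM in WT, 0.884 and 0.849 in Sp1ΔDBD/ΔDBD and 2.19 and 2.0 in Sp3-/- in Flk1+ cells. The genotypes did not overlap, with Sp1ΔDBD/ΔDBD lowest, and the change was -2.09 ± 0.44 (SE, limma adjusted p = 0.00701, 0.121 without WT replicate 2).

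Pgam1, phosphoglycerate mutase, went the other way. Its HE1 samples held 107 and 91.6 FPKM in WT, 127 and 150.3 in Sp1ΔDBD/ΔDBD and 124 and 114 in Sp3-/-. Its HE2 samples held 77.2 and 77.5 FPKM in WT, 125 and 138 in Sp1ΔDBD/ΔDBD and 104 and 109 in Sp3-/-. Its progenitor samples held 54.1 and 63.4 FPKM in WT, 76.7 and 112 in Sp1ΔDBD/ΔDBD and 86.2 and 87.7 in Sp3-/-. Every mutant sample was above both WT samples in each of the 3 populations. The rise in Sp1ΔDBD/ΔDBD cells was 0.48 ± 0.14 (SE, limma adjusted p = 0.0392, 0.0601 to 0.322 without WT replicate 1, WT replicate 2 or Sp1ΔDBD/ΔDBD replicate 2, 0.0611 without the intensity trend) in HE1, 0.76 ± 0.14 (SE, limma adjusted p = 0.00186) in HE2 and 0.66 ± 0.14 (SE, limma adjusted p = 0.00616, 0.0792 to 0.0857 without WT replicate 1 or Sp1ΔDBD/ΔDBD replicate 2) in progenitors. In Sp3-/- cells it was 0.46 ± 0.14 (SE, limma adjusted p = 0.0367, 0.0929 to 0.177 on leaving out any 1 of the 4 samples, 0.0568 without the intensity trend, 0.0919 after the GC and length correction) in HE2 and 0.57 ± 0.14 (SE, limma adjusted p = 0.0175, 0.089 to 0.14 without WT replicate 1, Sp3-/- replicate 1 or Sp3-/- replicate 2) in progenitors. Of these 5 rises, the 1 in Sp1ΔDBD/ΔDBD HE2 was kept on leaving out any 1 sample. Gapdh, Pgk1, Tpi1, Pgam1, Ldha and the other abundant enzymes have processed pseudogenes in the mouse genome that share their sequence, and how reads were divided among them is not given in the sources used here, so single values of these genes are uncertain to that extent.

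**Figure D5:**
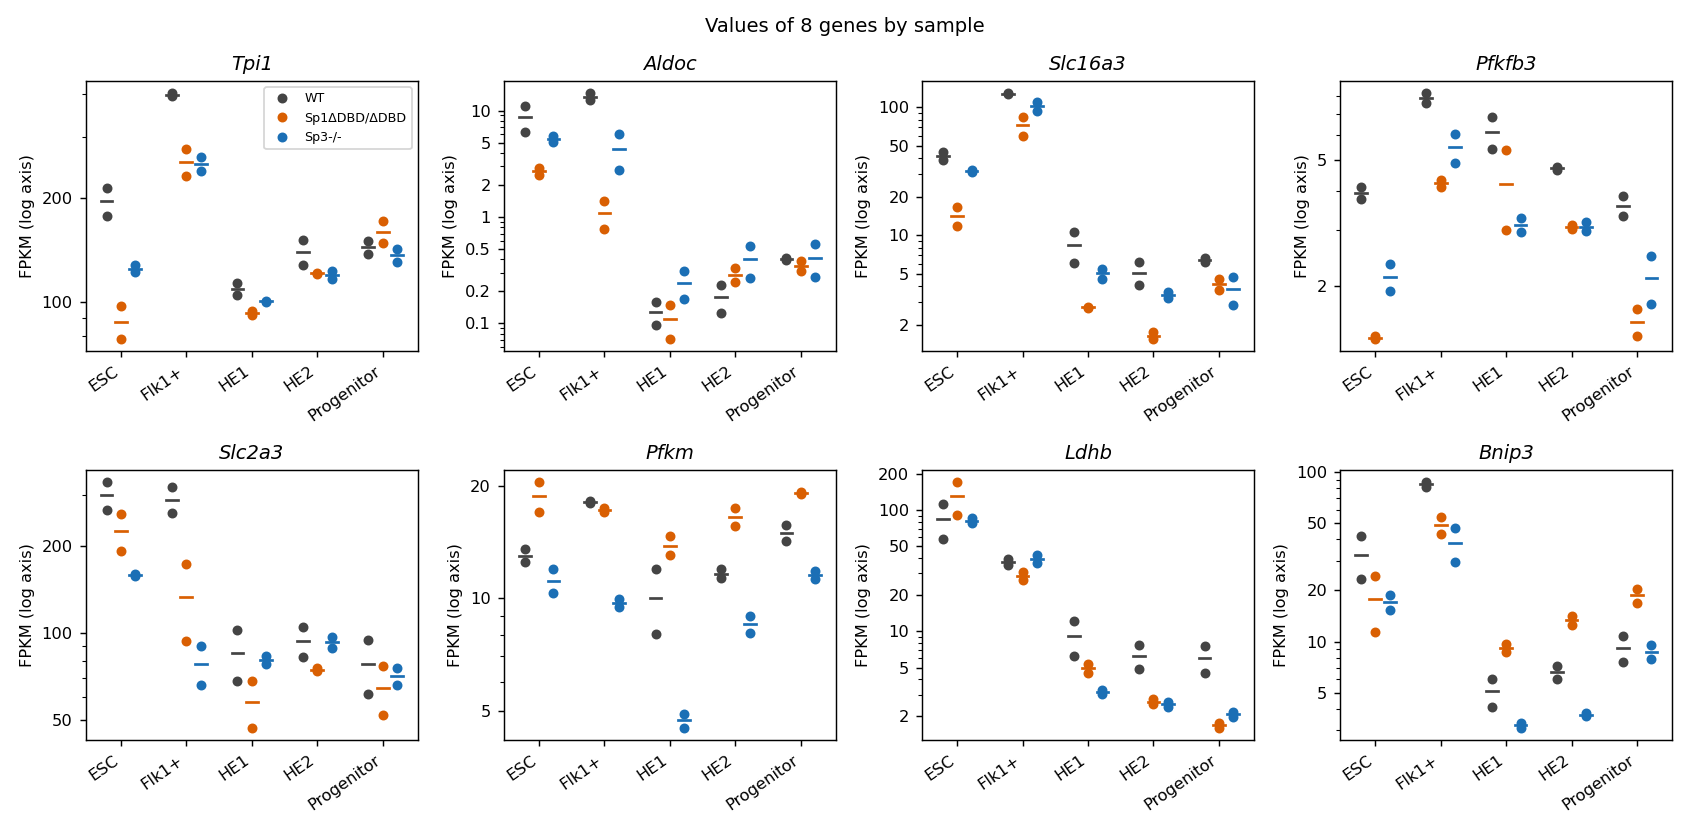
FPKM (log axis) of 8 genes in each sample, by population, with bars at group means and colours for genotypes. Mutant samples of Tpi1 and Aldoc lie below WT in ESC and Flk1+ cells, those of Ldhb lie below WT from HE1 on, and Sp1ΔDBD/ΔDBD and Sp3-/- samples of Pfkm lie on opposite sides of WT in HE2 and progenitors.

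Among the lactate genes, Slc16a3, the exporter of glycolytic cells, was at 45.02 and 38.97 FPKM in WT, 16.6 and 11.8 in Sp1ΔDBD/ΔDBD and 32.2 and 31.1 in Sp3-/- in ESC. Its level in HE1 was 10.7 and 6.09 FPKM in WT, 2.73 and 2.79 in Sp1ΔDBD/ΔDBD and 5.5 and 4.6 in Sp3-/-. In HE2 the values were 6.16 and 4.11 FPKM in WT, 1.56 and 1.75 in Sp1ΔDBD/ΔDBD and 3.64 and 3.26 in Sp3-/-. The 3 genotypes did not overlap in any of the 3 populations, with Sp1ΔDBD/ΔDBD samples lowest and WT highest. The change in Sp1ΔDBD/ΔDBD was -1.57 ± 0.26 (SE, limma adjusted p = 0.000891) in ESC, -1.52 ± 0.26 (SE, limma adjusted p = 0.000915, 0.0698 without both HE1 libraries high in muscle markers) in HE1 and -1.55 ± 0.26 (SE, limma adjusted p = 0.000718) in HE2, and all 3 calls were kept on leaving out any 1 sample. The HE1 call was lost without the 2 HE1 libraries high in muscle markers. Slc16a1 was at 14.3 and 15.2 FPKM in WT, 15.2 and 21.2 in Sp1ΔDBD/ΔDBD and 24.1 and 23.7 in Sp3-/- in HE1. It was higher in Sp3-/- cells, with 0.70 ± 0.17 (SE, limma adjusted p = 0.0135, 0.0739 to 0.0934 without WT replicate 1, Sp3-/- replicate 1 or Sp3-/- replicate 2, 0.0624 without both HE1 libraries high in muscle markers).

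The subunits of lactate dehydrogenase changed in different populations. Ldha was at 558 and 558 FPKM in WT, 402 and 346 in Sp1ΔDBD/ΔDBD and 386 and 395 in Sp3-/- in ESC. Both mutants lay below WT, with -0.58 ± 0.13 (SE, limma adjusted p = 0.00897, 0.0567 to 0.0857 without WT replicate 2 or Sp1ΔDBD/ΔDBD replicate 2) in Sp1ΔDBD/ΔDBD and -0.51 ± 0.13 (SE, limma adjusted p = 0.0129, 0.0574 to 0.0989 on leaving out any 1 of the 4 samples) in Sp3-/- cells. In Flk1+ cells it was at 925 and 906 FPKM in WT, 1038 and 1125 in Sp1ΔDBD/ΔDBD and 956 and 988 in Sp3-/-, and neither mutant passed. Ldhb, the other subunit, was at 12.1 and 6.24 FPKM in WT, 5.32 and 4.55 in Sp1ΔDBD/ΔDBD and 3.02 and 3.3 in Sp3-/- in HE1. In HE2 its samples held 7.68 and 4.84 FPKM in WT, 2.48 and 2.74 in Sp1ΔDBD/ΔDBD and 2.37 and 2.61 in Sp3-/-. In progenitors its samples held 7.53 and 4.53 FPKM in WT, 1.73 and 1.6 in Sp1ΔDBD/ΔDBD and 1.95 and 2.16 in Sp3-/-. All mutant samples were below both WT samples in these 3 populations. In Sp1ΔDBD/ΔDBD cells the change was -1.19 ± 0.33 (SE, limma adjusted p = 0.027, 0.0891 to 0.238 without WT replicate 1, Sp1ΔDBD/ΔDBD replicate 1 or Sp1ΔDBD/ΔDBD replicate 2) in HE2 and -1.75 ± 0.33 (SE, limma adjusted p = 0.00239) in progenitors. In Sp3-/- cells it was -1.43 ± 0.33 (SE, limma adjusted p = 0.00998, 0.0641 to 0.154 without WT replicate 1, Sp3-/- replicate 1 or Sp3-/- replicate 2, 0.157 without both HE1 libraries high in muscle markers) in HE1, -1.26 ± 0.33 (SE, limma adjusted p = 0.0168, 0.078 to 0.198 without WT replicate 1, Sp3-/- replicate 1 or Sp3-/- replicate 2) in HE2 and -1.46 ± 0.33 (SE, limma adjusted p = 0.00978, 0.0808 to 0.111 without WT replicate 1 or Sp3-/- replicate 1) in progenitors. WT replicate 1 was the higher WT sample each time and also held the higher sum of muscle markers, which was 438 and 70.7 FPKM in the WT HE2 pair against 371 and 35.9 in Sp1ΔDBD/ΔDBD and 138 and 116 in Sp3-/- HE2. Without the 2 HE1 libraries high in these markers the Ldhb call in Sp3-/- HE1 was lost, and the part of the markers in HE2 and progenitors was not tested. Primitive erythroid markers, 5 genes of which none was at 0, summed to 13573 and 4484 FPKM in WT progenitors, 9609 and 7228 in Sp1ΔDBD/ΔDBD and 1497 and 3428 in Sp3-/- progenitors. They were thus lowest in Sp3-/-, where Ldhb, Pgam1, Pfkfb3 and Egln1 passed. Ldhb, Pgam1 and Pfkfb3 also passed in Sp1ΔDBD/ΔDBD progenitors, whose marker sums lay between those of the 2 WT samples. The part of these markers in the results was not tested.

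The switch enzymes include Pfkfb3, which makes fructose 2,6-bisphosphate, the activator of phosphofructokinase. Pfkfb3 had more calls than any other gene of the list, 3 in each mutant, all lower. Its ESC samples held 3.76 and 4.12 FPKM in WT, 1.36 and 1.38 in Sp1ΔDBD/ΔDBD and 2.34 and 1.92 in Sp3-/-. All 4 mutant samples were below WT, with -1.46 ± 0.23 (SE, limma adjusted p = 0.00058) in Sp1ΔDBD/ΔDBD and -0.86 ± 0.23 (SE, limma adjusted p = 0.0204, 0.0612 to 0.178 on leaving out any 1 of the 4 samples) in Sp3-/- cells. The Flk1+ level of Pfkfb3 was 7.61 and 8.15 FPKM in WT, 4.34 and 4.12 in Sp1ΔDBD/ΔDBD and 4.92 and 6.07 in Sp3-/-. Again the mutants were lower, with -0.88 ± 0.23 (SE, limma adjusted p = 0.0272, 0.11 to 0.211 on leaving out any 1 of the 4 samples) in Sp1ΔDBD/ΔDBD cells. For HE1 the values were 5.43 and 6.86 FPKM in WT, 3.02 and 5.37 in Sp1ΔDBD/ΔDBD and 2.97 and 3.29 in Sp3-/-. The Sp1ΔDBD/ΔDBD samples were far apart from each other, and the change in Sp3-/- cells was -0.94 ± 0.23 (SE, limma adjusted p = 0.0126, 0.0669 to 0.0978 without WT replicate 2, Sp3-/- replicate 1 or Sp3-/- replicate 2). For progenitors the values were 3.33 and 3.85 FPKM in WT, 1.38 and 1.69 in Sp1ΔDBD/ΔDBD and 1.76 and 2.49 in Sp3-/-. All mutant samples were below WT there, with -1.17 ± 0.23 (SE, limma adjusted p = 0.00297) in Sp1ΔDBD/ΔDBD and -0.75 ± 0.23 (SE, limma adjusted p = 0.0481, 0.0934 to 0.371 without WT replicate 1, WT replicate 2 or Sp3-/- replicate 1, 0.051 with a pseudocount of 1) in Sp3-/- cells. Its relative Pfkfb4 was at 4.02 and 3.73 FPKM in WT, 3.18 and 3.27 in Sp1ΔDBD/ΔDBD and 7.3 and 6.07 in Sp3-/- in HE2. The Sp3-/- samples were the highest, with 0.77 ± 0.24 (SE, limma adjusted p = 0.0363, 0.0891 to 0.202 on leaving out any 1 of the 4 samples, 0.0742 after the GC and length correction). Neither Pdk1 nor Pdk3, the kinases of pyruvate dehydrogenase, passed in either mutant.

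Of the genes of oxygen sensing, Hif1a changed little in size but with small errors. Its ESC samples held 38.9 and 38.5 FPKM in WT, 30.001 and 29.5 in Sp1ΔDBD/ΔDBD and 26.9 and 28.2 in Sp3-/-. All mutant samples were below WT, with -0.38 ± 0.09 (SE, limma adjusted p = 0.0192, 0.0724 to 0.088 on leaving out any 1 of the 4 samples) in Sp1ΔDBD/ΔDBD and -0.49 ± 0.09 (SE, limma adjusted p = 0.00235, 0.232 after the GC and length correction) in Sp3-/- cells. The HE1 level of Hif1a was 57.7 and 61.01 FPKM in WT, 60.7 and 76.1 in Sp1ΔDBD/ΔDBD and 44.4 and 48.4 in Sp3-/-. Its HE2 level was 54.6 and 52.5 FPKM in WT, 58.2 and 59.9 in Sp1ΔDBD/ΔDBD and 41.96 and 39.6 in Sp3-/-. The Sp3-/- samples were the lowest in both, with -0.36 ± 0.09 (SE, limma adjusted p = 0.0193, 0.0591 to 0.156 on leaving out any 1 of the 4 samples, 0.0567 after the GC and length correction) in HE1 and -0.39 ± 0.09 (SE, limma adjusted p = 0.00966, 0.0834 to 0.0946 without WT replicate 1 or Sp3-/- replicate 2, 0.303 after the GC and length correction) in HE2. The fold change in Sp3-/- cells moved with the GC content of transcripts across the 14405 genes with a value (Spearman's rho across genes 0.46 in ESC, 0.12 in HE1 and 0.34 in HE2), and the transcripts of Hif1a hold 41.3% GC. 

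The hydroxylases each had 1 call. Egln3 was at 37.7 and 44.6 FPKM in WT, 21.2 and 24.6 in Sp1ΔDBD/ΔDBD and 30.5 and 35.6 in Sp3-/- in Flk1+ cells. All mutant samples were below WT, with -0.84 ± 0.24 (SE, limma adjusted p = 0.0466, 0.102 to 0.339 on leaving out any 1 of the 4 samples, 0.0603 without the intensity trend) in Sp1ΔDBD/ΔDBD cells. Egln1 was at 4.91 and 4.28 FPKM in WT, 2.94 and 3.23 in Sp1ΔDBD/ΔDBD and 2.01 and 3.17 in Sp3-/- in progenitors. Here too all mutant samples were below WT, with -0.83 ± 0.24 (SE, limma adjusted p = 0.0382, 0.0825 to 0.375 without WT replicate 1, WT replicate 2 or Sp3-/- replicate 1, 0.0626 with a pseudocount of 1) in Sp3-/- cells. Neither call was kept on leaving out each sample in turn.

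Among other HIF targets, Bnip3 had calls in both directions. Its Flk1+ samples held 81.98 and 87.2 FPKM in WT, 42.9 and 54.3 in Sp1ΔDBD/ΔDBD and 29.4 and 46.7 in Sp3-/-. All mutant samples were below WT, and Sp3-/- passed with -1.19 ± 0.31 (SE, limma adjusted p = 0.0159, 0.0656 to 0.224 without WT replicate 1, WT replicate 2 or Sp3-/- replicate 1, 0.063 after the GC and length correction). Later, the HE2 level was 6.02 and 7.2 FPKM in WT, 12.6 and 14.1 in Sp1ΔDBD/ΔDBD and 3.64 and 3.79 in Sp3-/-. In progenitors Bnip3 was at 7.59 and 10.7 FPKM in WT, 16.97 and 20.5 in Sp1ΔDBD/ΔDBD and 7.87 and 9.56 in Sp3-/-. The Sp1ΔDBD/ΔDBD samples were the highest in both, with 1.0 ± 0.31 (SE, limma adjusted p = 0.0445, 0.0768 to 0.223 on leaving out any 1 of the 4 samples, 0.059 without the intensity trend, 0.0811 after the GC and length correction) in HE2 and 1.04 ± 0.31 (SE, limma adjusted p = 0.0404, 0.0869 to 0.257 without WT replicate 1, Sp1ΔDBD/ΔDBD replicate 1 or Sp1ΔDBD/ΔDBD replicate 2, 0.0534 without the intensity trend, 0.131 after the GC and length correction) in progenitors. The transcripts of Bnip3 hold 41.6% GC. In Sp1ΔDBD/ΔDBD cells the fold change ran against GC content (Spearman's rho across genes -0.14 in HE2 and -0.29 in progenitors). Megakaryocyte markers were also highest in Sp1ΔDBD/ΔDBD progenitors, where 3 genes summed to 27.1 and 21.4 FPKM against 8.47 and 10.3 in WT and 5.77 and 5.23 in Sp3-/-, with none of the 3 at 0. Their part in the result was not tested. In HE2 the same 3 genes summed to 2.44 and 2.56 FPKM in Sp1ΔDBD/ΔDBD and 1.84 and 1.65 in WT. P4ha1 was at 57.1 and 65.8 FPKM in WT, 35.2 and 53.5 in Sp1ΔDBD/ΔDBD and 22.6 and 31.8 in Sp3-/- in Flk1+ cells. The Sp3-/- samples were the lowest, with -1.19 ± 0.22 (SE, limma adjusted p = 0.00181, 0.0515 without Sp3-/- replicate 1) in Sp3-/- cells. Vegfa passed in neither mutant.

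The 10 genes with no call were Slc2a1, Hk1, Gpi1, Aldoa, Eno1, Pkm, Pdk1, Pdk3, Epas1 and Vegfa. Aldoa ranged from 313 to 988 FPKM over the 30 samples, and its log2 changes against WT from -0.25 to 0.00. Gpi1, which follows hexokinase, ranged from 82.8 to 137 FPKM and from -0.29 to 0.14 in log2 change. For Pkm the changes lay between -0.39 and 0.20 and for Eno1 between -0.01 and 0.63. The remaining 6 spread more widely, and Epas1 and Hk1 came down to -1.35 and -1.15 with limma adjusted p no lower than 0.0675 and 0.0627. That a gene did not pass does not show that its level was the same.

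The direct comparison of the mutants asks where the lines differ from each other. Its log2 differences do not use the WT samples. Their SE and adjusted p do, through the spread shared over all 30 samples. Of the 32 genes, 3 differed in ESC, 2 in Flk1+ cells, 7 in HE1, 8 in HE2 and 4 in progenitors, against 9.67%, 7.39%, 13.6%, 15.9% and 11.6% of all genes tested. Pfkm was higher in Sp1ΔDBD/ΔDBD than in Sp3-/- cells in all 5 populations. The log2 difference was 0.74 ± 0.15 (SE, limma adjusted p = 0.00381, 0.0508 to 0.0724 without Sp1ΔDBD/ΔDBD replicate 1 or Sp3-/- replicate 1, 0.0661 with the populations fitted alone) in ESC, 0.81 ± 0.15 (SE, limma adjusted p = 0.00242) in Flk1+ cells, 1.53 ± 0.15 (SE, limma adjusted p = 1.99e-06) in HE1, 0.95 ± 0.15 (SE, limma adjusted p = 0.000329, 0.0602 with the populations fitted alone) in HE2 and 0.72 ± 0.15 (SE, limma adjusted p = 0.00379, 0.0873 with the populations fitted alone) in progenitors. The samples of both lines did not overlap in any population. Bnip3 was also higher in Sp1ΔDBD/ΔDBD cells, by 1.49 ± 0.31 (SE, limma adjusted p = 0.00334) in HE1, 1.81 ± 0.31 (SE, limma adjusted p = 0.000652) in HE2 and 1.10 ± 0.31 (SE, limma adjusted p = 0.0263, 0.0578 to 0.16 on leaving out any 1 of the 4 samples, 0.099 with the populations fitted alone, 0.129 after the GC and length correction) in progenitors. Hif1a was higher there too, by 0.55 ± 0.09 (SE, limma adjusted p = 0.000697, 0.0994 with the populations fitted alone, 0.0952 after the GC and length correction), 0.53 ± 0.09 (SE, limma adjusted p = 0.000858, 0.0748 with the populations fitted alone, 0.452 after the GC and length correction) and 0.33 ± 0.09 (SE, limma adjusted p = 0.028, 0.075 to 0.145 on leaving out any 1 of the 4 samples, 0.0547 without the intensity trend, 0.198 with the populations fitted alone, 0.869 after the GC and length correction) in the same order.

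Other genes differed between the mutants in 1 to 3 populations. Pfkl was higher in Sp1ΔDBD/ΔDBD cells by 0.84 ± 0.19 (SE, limma adjusted p = 0.00653, 0.0672 to 0.0782 without Sp1ΔDBD/ΔDBD replicate 2 or Sp3-/- replicate 2) in HE1 and 0.69 ± 0.19 (SE, limma adjusted p = 0.0196, 0.0565 to 0.114 on leaving out any 1 of the 4 samples, 0.075 with the populations fitted alone) in HE2. Pdk3 was higher by 0.60 ± 0.13 (SE, limma adjusted p = 0.00401, 0.0729 without Sp3-/- replicate 1, 0.138 with the populations fitted alone) in HE2 and 0.66 ± 0.13 (SE, limma adjusted p = 0.00239, 0.107 with the populations fitted alone) in progenitors. Pdk3 lies on the X chromosome, whose median log2 change against WT was 0.17 in Sp1ΔDBD/ΔDBD HE2 and -0.07 in Sp3-/- HE2. In progenitors the X medians were 0.16 and 0.06, and their part in the Pdk3 result was not tested. Slc16a3 was lower in Sp1ΔDBD/ΔDBD than in Sp3-/- cells, with -1.17 ± 0.26 (SE, limma adjusted p = 0.00761, 0.0702 to 0.0883 without Sp1ΔDBD/ΔDBD replicate 2 or Sp3-/- replicate 1, 0.0542 with the populations fitted alone) in ESC, -0.84 ± 0.26 (SE, limma adjusted p = 0.0357, 0.0919 to 0.2 on leaving out any 1 of the 4 samples, 0.052 with a pseudocount of 1, 0.178 with the populations fitted alone, 0.0744 after the GC and length correction, 0.0666 without both HE1 libraries high in muscle markers) in HE1 and -1.02 ± 0.26 (SE, limma adjusted p = 0.0118, 0.054 to 0.0745 without Sp1ΔDBD/ΔDBD replicate 1, Sp3-/- replicate 1 or Sp3-/- replicate 2, 0.139 with the populations fitted alone, 0.0526 after the GC and length correction) in HE2. Lower as well were Tpi1 in ESC, with -0.51 ± 0.12 (SE, limma adjusted p = 0.0126, 0.0679 to 0.151 without Sp1ΔDBD/ΔDBD replicate 2, Sp3-/- replicate 1 or Sp3-/- replicate 2, 0.129 with the populations fitted alone, 0.0943 after the GC and length correction), and Aldoc in Flk1+ cells, with -1.86 ± 0.41 (SE, limma adjusted p = 0.0097, 0.0852 to 0.156 without Sp1ΔDBD/ΔDBD replicate 1 or Sp3-/- replicate 2, 0.0905 with the populations fitted alone). Eno2 was lower too, with -1.45 ± 0.44 (SE, limma adjusted p = 0.0336, 0.0692 to 0.18 on leaving out any 1 of the 4 samples, 0.0602 with the populations fitted alone, 0.0786 without both HE1 libraries high in muscle markers) in HE1 and -1.64 ± 0.44 (SE, limma adjusted p = 0.0155, 0.05 to 0.108 on leaving out any 1 of the 4 samples, 0.132 with the populations fitted alone) in HE2. For Pfkfb4 the difference was -0.98 ± 0.24 (SE, limma adjusted p = 0.00953, 0.0792 to 0.122 without Sp1ΔDBD/ΔDBD replicate 2 or Sp3-/- replicate 2, 0.113 with the populations fitted alone) in HE1 and -1.02 ± 0.24 (SE, limma adjusted p = 0.00627, 0.0608 without Sp3-/- replicate 1, 0.0855 with the populations fitted alone) in HE2. For Slc2a3, Pfkfb3, Ldha, Ldhb and Pgam1, called in both mutants against WT, no difference between the mutants passed, which does not show that their levels were the same.

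Whether an effect changed with differentiation was tested as the difference between the effect in a later population and that in ESC. For Sp1ΔDBD/ΔDBD cells, 1 gene differed in Flk1+ cells, 4 in HE1, 6 in HE2 and 5 in progenitors, against 1.74%, 3.99%, 2.62% and 3.15% of all genes tested. The effects on Tpi1, Hif1a and Bnip3 were higher in HE1, HE2 and progenitors than in ESC, and that on Pfkl in HE1 and HE2. For Sp3-/- cells, 1 gene differed in Flk1+ cells, 2 in HE1, 0 in HE2 and 1 in progenitors, against 1.48%, 2.16%, 0.544% and 1.34%. In HE2, limma gave 8 of the 32 genes an unadjusted p under 0.05, against 12.6% of all genes tested. Values of these differences are given in the closing section.

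A further 88 genes of glycolysis, the pentose phosphate pathway and the HIF response were listed, and 78 passed the filter. Of these 78, 6 fell and 2 rose in Sp1ΔDBD/ΔDBD ESC, where 3.26% and 2.8% of all genes tested did. In Sp1ΔDBD/ΔDBD Flk1+ cells 4 fell and 1 rose (2.62% and 2.92% of all), in Sp1ΔDBD/ΔDBD HE1 4 fell and 7 rose (4.35% and 5.69%), in Sp1ΔDBD/ΔDBD HE2 6 fell and 5 rose (4.97% and 4.7%), and in Sp1ΔDBD/ΔDBD progenitors 7 fell and 4 rose (5.04% and 3.75%). Of the same genes, 8 fell and 3 rose in Sp3-/- ESC (5.91% and 5.4%) and 6 fell and 5 rose in Sp3-/- Flk1+ cells (5.94% and 6.69%). The Sp3-/- counts were 6 and 2 for HE1 (4.87% and 6.02%) and 5 and 5 for HE2 (6.84% and 6.97%), and 5 genes fell in Sp3-/- progenitors (4.77%). Their median log2 change lay between -0.19 and 0.02 in the 10 comparisons. Genes called in at least 3 of the 10 are named below. Their calls were not followed under other settings or without single samples, so an adjusted p given alone does not mark a stable call.

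P4hb, protein disulphide isomerase and a subunit of prolyl 4-hydroxylase, had 8 calls, all lower, from -0.89 ± 0.14 (SE, limma adjusted p = 0.000585) in Sp3-/- HE1 to -0.51 ± 0.14 (SE, limma adjusted p = 0.0256) in Sp1ΔDBD/ΔDBD HE2. In HE1 the values of P4hb were 447 and 526 FPKM in WT against 262 and 261 in Sp3-/-. P4hb lies on chromosome 11, as does Wsb1, a ubiquitin ligase subunit induced by hypoxia, which was lower in Sp3-/- HE1, HE2 and progenitors, with -0.84 ± 0.19 (SE, limma adjusted p = 0.00705) in HE2. The median log2 change of chromosome 11 was below 0 in all 10 comparisons, which share the WT samples, and was -0.23 in Sp3-/- HE1, -0.26 in HE2 and -0.27 in progenitors. Its part in the calls of P4hb and Wsb1 was not tested. Plod1, a lysyl hydroxylase, was lower in all 5 Sp1ΔDBD/ΔDBD populations. In progenitors it was at 8.11 and 9.73 FPKM in WT against 3.6 and 3.6 in Sp1ΔDBD/ΔDBD, or -1.28 ± 0.17 (SE, limma adjusted p = 0.000101). Its relative Plod2 fell in Flk1+ cells of both mutants and in Sp3-/- HE1, with -1.14 ± 0.21 (SE, limma adjusted p = 0.00176) in Sp3-/- Flk1+ cells.

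Of further HIF targets, Ero1l, an oxidase of the endoplasmic reticulum, was at 33.1 and 38.3 FPKM in WT against 13.2 and 18.2 in Sp3-/- Flk1+ cells, or -1.19 ± 0.15 (SE, limma adjusted p = 0.000133), and was also lower in Sp3-/- ESC and HE2. Adm, the vessel peptide adrenomedullin, was at 0.703 and 1.45 FPKM in WT against 0.00595 and 0.00816 in Sp1ΔDBD/ΔDBD progenitors, or -3.38 ± 0.74 (SE, limma adjusted p = 0.00723), and was lower in HE2 of both mutants. At such low values the fold change depends on the pseudocount. Egln2, the third HIF hydroxylase, went up instead in Sp3-/- ESC, Flk1+ cells and HE2, with 0.89 ± 0.14 (SE, limma adjusted p = 0.000821) in Flk1+ cells.

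Regulators of pyruvate and phosphofructokinase had calls in both directions. Pcx, pyruvate carboxylase, was higher in Sp1ΔDBD/ΔDBD HE1, HE2 and progenitors and in Sp3-/- Flk1+ cells and HE2, with 1.37 ± 0.22 (SE, limma adjusted p = 0.000439) in Sp1ΔDBD/ΔDBD HE2. Pdp1, a phosphatase that switches pyruvate dehydrogenase on, was higher in Sp1ΔDBD/ΔDBD ESC, Flk1+ cells and HE1, with 1.41 ± 0.24 (SE, limma adjusted p = 0.00108) in Flk1+ cells. Pdk4, a kinase with the opposite action, was lower in Flk1+ cells of both mutants and in Sp1ΔDBD/ΔDBD HE1, with -1.99 ± 0.43 (SE, limma adjusted p = 0.00547) in Sp3-/- Flk1+ cells. Pfkfb1 was lower in ESC and Flk1+ cells of both mutants, with -1.09 ± 0.17 (SE, limma adjusted p = 0.000493) in Sp1ΔDBD/ΔDBD ESC. It lies on the X chromosome, whose median log2 change was 0.00 and 0.04 in Sp1ΔDBD/ΔDBD ESC and Flk1+ cells. In the same populations of Sp3-/- cells the X median was -0.18 and -0.12, and its part in the Pfkfb1 calls was not tested. Pfkfb2 was higher in HE1 and HE2 of both mutants, with 1.27 ± 0.23 (SE, limma adjusted p = 0.00169) in Sp1ΔDBD/ΔDBD HE1, and lower in Sp3-/- ESC. Rpia, an isomerase of the pentose phosphate pathway, was higher in HE1 and HE2 of both mutants, with 1.43 ± 0.19 (SE, limma adjusted p = 0.000193) in Sp3-/- HE1.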

How the data were processed

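The genes, lists and tests were chosen with earlier results of these data known. Gene levels of 30 libraries (5 populations, 3 genotypes, 2 samples each) were analysed. The authors sequenced stranded total RNA, aligned reads to mm10 with HISAT2 2.1.0, estimated FPKM with StringTie 1.3.3 and, per their methods, quantile normalised the deposited FPKM. In the table, samples differed by at most 0.192 FPKM at any rank, and 2 samples can hold the same value where a gene has the same rank. The depth of each library is unknown, so counting error cannot be given.

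Genes above 1 FPKM in at least 1 sample were tested on log2(FPKM + 0.1) with limma 3.58.1 (R 4.3.3), with 15 group means over all 30 samples, an intensity trend (15 residual and 3.92 prior degrees of freedom) and Benjamini-Hochberg adjustment within each comparison (two-sided, threshold 0.05). Comparisons were each mutant against WT and against the other mutant, the change of each effect from ESC, and the steps between WT populations. P-values measure only the spread between these samples, which may be partly technical. On simulated data made for Sp1ΔDBD/ΔDBD against WT in Flk1+ cells (14525 genes), 43% of genes changed by 1 log2 unit and 81% of those changed by 2 were called. Of the calls, 6.77% were on unchanged genes. Such shares depend on how many genes change, here 100 by each amount, and the real number is not known. The simulated errors were independent between samples, while blast culture samples of these data shared a correlation. Named genes were all members called against WT, the 3 largest rises and falls among calls per WT step, and other pathway genes called in at least 3 of the 10 comparisons, of which 1 is not reported here. Alternatives were another pseudocount, other filters, no trend, populations fitted alone, a replicate block, a correlation within blast cultures, a correction for GC content and length (GENCODE M21, GRCm38), a fold rule without a test, leaving out each sample and, added after seeing marker levels, leaving out 2 HE1 libraries together.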

Additional observations from a re-analysis of the deposited data

Results flagged for a closer look

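In the differences below, the effect of a mutant in a later population differed from its effect in ESC by limma's interaction contrast, and the value is the later effect minus the effect in ESC on the log2 scale. A positive value means that the level in the mutant relative to WT was higher in the later population. Parentheses give the adjusted p without each sample, or under each setting, that ended the call.

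For Sp1ΔDBD/ΔDBD cells, Tpi1 differed by 0.93 ± 0.17 (SE, limma adjusted p = 0.00543) in HE1, 0.96 ± 0.17 (SE, limma adjusted p = 0.00586, 0.0644 with the populations fitted alone) in HE2 and 1.3 ± 0.17 (SE, limma adjusted p = 0.000683) in progenitors. Leaving out any 1 sample kept these 3. Pfkl differed by 1.36 ± 0.27 (SE, limma adjusted p = 0.00822) in HE1 and 1.19 ± 0.27 (SE, limma adjusted p = 0.0211, 0.0706 to 0.0833 without ESC WT replicate 1, HE2 WT replicate 1, ESC Sp1ΔDBD/ΔDBD replicate 2 or HE2 Sp1ΔDBD/ΔDBD replicate 2, 0.0845 with the populations fitted alone) in HE2. Bnip3 differed by 1.76 ± 0.43 (SE, limma adjusted p = 0.0276, 0.0918 to 0.119 without ESC WT replicate 1, HE1 WT replicate 1, ESC Sp1ΔDBD/ΔDBD replicate 2 or HE1 Sp1ΔDBD/ΔDBD replicate 2, 0.119 with the populations fitted alone, 0.102 after the GC and length correction, 0.14 without both HE1 libraries high in muscle markers) in HE1, 1.90 ± 0.43 (SE, limma adjusted p = 0.0213, 0.0731 to 0.0897 without ESC WT replicate 1, HE2 WT replicate 1, ESC Sp1ΔDBD/ΔDBD replicate 2 or HE2 Sp1ΔDBD/ΔDBD replicate 2, 0.118 with the populations fitted alone, 0.0636 after the GC and length correction) in HE2 and 1.94 ± 0.43 (SE, limma adjusted p = 0.0208, 0.0666 to 0.0829 without ESC WT replicate 1, progenitor WT replicate 1 or ESC Sp1ΔDBD/ΔDBD replicate 2, 0.117 with the populations fitted alone, 0.0853 after the GC and length correction) in progenitors. In ESC, Tpi1 and Pfkl had been called lower than in WT, while Bnip3 had no call and its samples overlapped.

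Hif1a differed by 0.57 ± 0.13 (SE, limma adjusted p = 0.0189, 0.0504 to 0.111 without ESC WT replicate 2, HE1 WT replicate 1, ESC Sp1ΔDBD/ΔDBD replicate 1 or HE1 Sp1ΔDBD/ΔDBD replicate 2, 0.11 with the populations fitted alone, 0.234 after the GC and length correction) in HE1, 0.52 ± 0.13 (SE, limma adjusted p = 0.0398, 0.0535 to 0.125 on leaving out any 1 of the 8 samples, 0.0749 without the intensity trend, 0.12 with the populations fitted alone, 0.253 after the GC and length correction) in HE2 and 0.56 ± 0.13 (SE, limma adjusted p = 0.0267, 0.0513 to 0.0768 without ESC WT replicate 1, ESC WT replicate 2, progenitor WT replicate 1, progenitor WT replicate 2, ESC Sp1ΔDBD/ΔDBD replicate 1, ESC Sp1ΔDBD/ΔDBD replicate 2 or progenitor Sp1ΔDBD/ΔDBD replicate 1, 0.0507 without the intensity trend, 0.0873 with the populations fitted alone, 0.256 after the GC and length correction) in progenitors. The difference of Pgam1 was 0.87 ± 0.20 (SE, limma adjusted p = 0.023, 0.0601 to 0.103 without ESC WT replicate 2, HE2 WT replicate 1, HE2 WT replicate 2, ESC Sp1ΔDBD/ΔDBD replicate 1 or HE2 Sp1ΔDBD/ΔDBD replicate 2) in HE2 and 0.76 ± 0.20 (SE, limma adjusted p = 0.0433, 0.0544 to 0.162 without ESC WT replicate 1, ESC WT replicate 2, progenitor WT replicate 1, ESC Sp1ΔDBD/ΔDBD replicate 1 or progenitor Sp1ΔDBD/ΔDBD replicate 2, 0.0673 without the intensity trend, 0.174 with the populations fitted alone, 0.0705 after the GC and length correction) in progenitors, and that of Ldha was 0.82 ± 0.18 (SE, limma adjusted p = 0.0241, 0.0676 to 0.105 without ESC WT replicate 2, Flk1+ WT replicate 1, Flk1+ WT replicate 2, ESC Sp1ΔDBD/ΔDBD replicate 2 or Flk1+ Sp1ΔDBD/ΔDBD replicate 2) in Flk1+ cells. Ldhb moved downward, by -1.83 ± 0.47 (SE, limma adjusted p = 0.0414, 0.0763 to 0.216 without ESC WT replicate 2, HE2 WT replicate 1, ESC Sp1ΔDBD/ΔDBD replicate 1, HE2 Sp1ΔDBD/ΔDBD replicate 1 or HE2 Sp1ΔDBD/ΔDBD replicate 2, 0.0544 without the intensity trend, 0.144 with the populations fitted alone) in HE2 and -2.39 ± 0.47 (SE, limma adjusted p = 0.00993, 0.0526 to 0.0574 without ESC WT replicate 2, progenitor WT replicate 1 or ESC Sp1ΔDBD/ΔDBD replicate 1, 0.0713 with the populations fitted alone) in progenitors. Its 2 samples were far apart in ESC of both genotypes.

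For Sp3-/- cells, Hif1a differed by 0.55 ± 0.13 (SE, limma adjusted p = 0.0398, 0.0799 to 0.169 on leaving out any 1 of the 8 samples, 0.0703 without the intensity trend) in Flk1+ cells. In HE1, Ldha differed by 0.71 ± 0.18 (SE, limma adjusted p = 0.0458, 0.0701 to 0.18 on leaving out any 1 of the 8 samples, 0.0579 without the intensity trend, 0.108 with the populations fitted alone, 0.0671 after the GC and length correction, 0.116 without both HE1 libraries high in muscle markers) and Pfkm by -0.82 ± 0.21 (SE, limma adjusted p = 0.0472, 0.0803 to 0.191 without ESC WT replicate 1, ESC WT replicate 2, HE1 WT replicate 2, ESC Sp3-/- replicate 1, ESC Sp3-/- replicate 2, HE1 Sp3-/- replicate 1 or HE1 Sp3-/- replicate 2, 0.0528 without the intensity trend, 0.183 with the populations fitted alone, 0.0678 with the blast culture correlation, 0.0934 after the GC and length correction). Pgam1 differed by 0.85 ± 0.20 (SE, limma adjusted p = 0.0428, 0.0617 to 0.139 without ESC WT replicate 1, ESC WT replicate 2, progenitor WT replicate 1, ESC Sp3-/- replicate 1, ESC Sp3-/- replicate 2, progenitor Sp3-/- replicate 1 or progenitor Sp3-/- replicate 2, 0.0564 without the intensity trend, 0.167 with the populations fitted alone) in progenitors. None of these 4 was kept without the intensity trend or on leaving out each sample in turn.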

How the results depend on the processing

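Summed over populations, 9 calls of a higher and 18 of a lower level in Sp1ΔDBD/ΔDBD than in WT cells, 5 and 24 in Sp3-/- cells, 15 and 9 between the mutants, 16 and 4 changes of effect from ESC (Sp1ΔDBD/ΔDBD and Sp3-/-) and 26 rises and 37 falls in WT steps were made. No call of these genes reversed under any alternative run. Other filters, no trend, populations fitted alone, the replicate block and the blast culture correlation leave the fold changes unchanged. These settings could not reverse a call. With each population fitted alone, the same counts were 1 and 2, 0 and 6, 6 and 0, and 6 and 1, while the counts of the WT steps stayed within 1.5 times. Without the intensity trend, 3 calls were higher in Sp1ΔDBD/ΔDBD cells and 0 effects of Sp3-/- cells differed from ESC. After the GC and length correction, 2 such effects differed. By a fold above 2 between group means, with no test, 2 were higher in Sp1ΔDBD/ΔDBD cells, 0 were higher and 9 lower in Sp3-/- cells, 5 were higher in Sp1ΔDBD/ΔDBD than in Sp3-/- cells, and 14 rose in WT steps. With the replicate block, counts were 10 and 27 for Sp1ΔDBD/ΔDBD, 5 and 35 for Sp3-/-, 22 and 11 between mutants, 20 and 6 for the changes of effect, and 27 rises and 41 falls in WT steps, and all 56 calls against WT passed. The labels do not say that a number marks a shared culture, the correlation of same-numbered samples between genotypes of a population lay between -0.03 and 0.47 (0.23 to 0.47 in the 5 populations between WT and Sp1ΔDBD/ΔDBD), and with 2 pairs a comparison the numbers were not taken as pairs. HE1, HE2 and progenitor samples of the same genotype and number, taken as 1 blast culture, shared a correlation of 0.346. Leaving out 1 sample gave 2 to 10 higher in Sp1ΔDBD/ΔDBD and 3 to 6 higher in Sp3-/- cells than in WT, and 8 to 19 (Sp1ΔDBD/ΔDBD) and 0 to 6 (Sp3-/-) changes of effect, with the fewest without Flk1+ WT replicate 1, HE2 WT replicate 1, ESC WT replicate 2 and ESC WT replicate 1. The causes were not tested. Without the 2 HE1 libraries high in muscle markers, which was chosen after seeing the data, 7 calls were higher and 17 lower in Sp1ΔDBD/ΔDBD cells and 4 and 27 in Sp3-/- cells. Without read counts, what depth limits cannot be given, and genes near the pseudocount (Aldoc, Epas1, Eno2 and Pfkfb4, each in some populations) are the least certain there.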
